A study of Mus musculus with 4 samples.

Results

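The 10 genes described here carry glucose into the cell and break it down to lactate: Slc2a1, Hk2, Gpi1, Pfkp, Aldoa, Tpi1, Pgk1, Pgam1, Eno1 and Ldha. They were chosen by function and matched by the transcript accession of each probe, which gave 14 probes. The array named 17016 genes in this way, and all 10 were among the 21469 genes tested (13992 of them named). The RNA came from prostate spheres, three-dimensional cultures grown from basal cells that had been sorted by FACS from adult FVB mice. The vehicle group had 2 arrays and received DMSO. The DAPT group had 2 arrays and received DAPT at 5 µM, and in both groups the medium was replaced every 24 h. DAPT blocks γ-secretase, the enzyme that cuts Notch receptors and frees their signalling domain, and the study asked how Notch signalling regulates basal cell proliferation and differentiation. On each array 2.5 µg of total RNA entered the work-up, sphere RNA was read in red (Alexa Fluor 647) and a universal mouse reference RNA in green (Alexa Fluor 555), with no array dyed the other way round. Whether a group's arrays stem from separate cultures or mice is not stated in the labels, and p-values therefore cover the spread between these samples alone, which may be technical.

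Glycolysis turns glucose into pyruvate in the cytosol and yields ATP without oxygen. In its upper stretch, ATP is spent to trap and split the sugar, and in its lower stretch the resulting triose phosphates give back ATP and NADH. Lactate dehydrogenase then reduces pyruvate to lactate and returns NAD+ to the pathway. Many of these genes are shared targets of the hypoxia-inducible factors and of MYC, and proliferating cells often run the pathway at a high rate even with oxygen present.

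Levels below are log2 ratios of sphere RNA over reference RNA on 1 array, and changes are DAPT minus vehicle on that log2 scale, ± SE from limma with n = 2 arrays per group. Benjamini-Hochberg adjustment ran over the 21469 genes, and a gene passed at an adjusted p under 0.05. With DAPT, 3 of the 10 genes rose, Eno1, Ldha and Pgk1, and 0 fell. Over all genes 2.88% rose (618 genes) and 3.92% fell (841 genes), and the split was 1263 and 527 with median centring and 384 and 1001 with scale normalization. The median change of the 10 was 0.28, against -0.06 over all genes, and 9 of the 10 changes were above 0 (10 with median centring, 7 with scale normalization). Before adjustment 5 of the 10 had p under 0.05, all of them upward. Over all 21469 genes 4993 did, 2189 of them upward. Without DAPT 2 only Eno1 passed. Of the 10, 5 had both DAPT arrays above both vehicle arrays (Tpi1, Pgk1, Pgam1, Eno1 and Ldha), where 22.1% of all genes did. In bulk RNA, fewer cells of a type and less RNA per cell cannot be told apart, so a change here can be either.

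**Figure D1:**
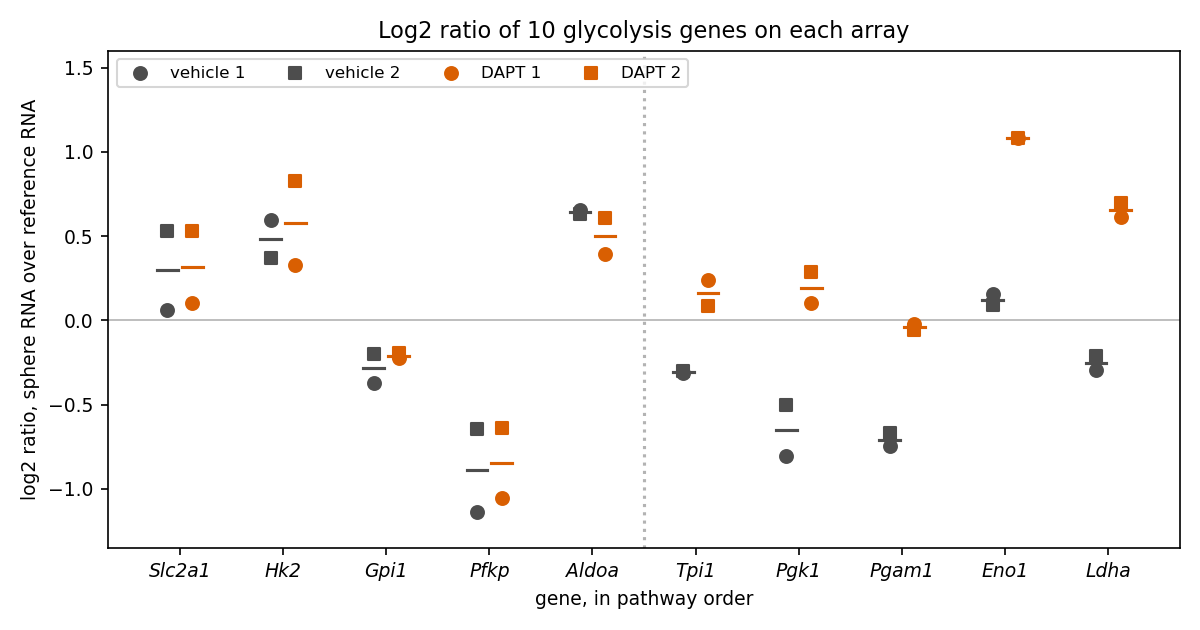
Log2 ratio of sphere RNA over reference RNA (vertical axis) for the 10 genes in pathway order (horizontal axis). Grey symbols are the vehicle arrays, orange symbols the DAPT arrays, circles replicate 1 and squares replicate 2, short bars the group means, and the dotted line separates Aldoa from Tpi1. From Tpi1 to Ldha both DAPT arrays lie above both vehicle arrays.

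Ldha encodes the A subunit of lactate dehydrogenase, which makes lactate from pyruvate. Its log2 ratio was -0.30 and -0.21 on the vehicle arrays and 0.61 and 0.69 on the DAPT arrays. Both vehicle arrays lay below 0 and both DAPT arrays above it, so the groups did not overlap. The change was 0.91 ± 0.19 (1.88-fold higher, adjusted p = 0.0157). A further probe for Ldha went from -0.13 and 0.21 to 1.03 and 1.19, a change of 1.08 ± 0.21 (adjusted p = 0.00995). The rise of Ldha did not pass when DAPT 2 was left out (0.87, adjusted p = 0.0546) and passed without each of the other 3 arrays.

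Eno1 encodes alpha-enolase, which turns 2-phosphoglycerate into phosphoenolpyruvate. Its ratio was 0.16 and 0.09 with vehicle and 1.08 and 1.08 with DAPT. The DAPT arrays were almost equal and lay well above the vehicle arrays. The change was 0.96 ± 0.19 (1.94-fold higher, adjusted p = 0.0121), and it passed with any 1 array left out (adjusted p from 0.0133 to 0.0292). Only 1 probe measured Eno1, and genes or pseudogenes nearly identical to it were not separated from it here.

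Pgk1 encodes phosphoglycerate kinase, the step that first gives ATP back. Its probe was printed in 10 spots on each array, and the mean ratio was -0.80 and -0.50 with vehicle and 0.10 and 0.29 with DAPT. Both DAPT arrays lay above both vehicle arrays. The change was 0.85 ± 0.20 (1.80-fold higher, adjusted p = 0.0283), and spot by spot it ran from 0.50 to 1.14, above 0 at 10 of 10 spots. The further Pgk1 probe changed by 0.86 ± 0.21 (adjusted p = 0.0293). The call was lost without vehicle 1 (0.70, adjusted p = 0.0826) and without DAPT 2 (0.75, adjusted p = 0.113), and also with a normexp offset of 10 (0.90, adjusted p = 0.0577).

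Pgam1 and Tpi1 did not pass, although their groups did not overlap. Pgam1 encodes phosphoglycerate mutase, which moves the phosphate within phosphoglycerate. Its ratio was -0.75 and -0.67 with vehicle and -0.02 and -0.06 with DAPT, a change of 0.67 ± 0.19 (adjusted p = 0.0572, 95% interval 0.25 to 1.09). Both DAPT arrays lay closer to 0 than both vehicle arrays did. Tpi1 encodes triosephosphate isomerase, which interconverts the products of aldolase. Its ratio was -0.31 and -0.30 with vehicle and 0.24 and 0.08 with DAPT, a change of 0.47 ± 0.19 (adjusted p = 0.165, 95% interval 0.05 to 0.89). Pgam1 passed with median centring (1.14), with scale normalization (0.75), with the mean over probes (0.67) and with the replicate number as a block (adjusted p = 0.0454), and Tpi1 passed with median centring alone of all alternatives run (0.96).

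The other 5 genes, from glucose entry to the splitting of the sugar, had changes between -0.14 and 0.10 and none passed. Slc2a1 encodes the glucose transporter GLUT1. Its ratio was 0.06 and 0.53 with vehicle and 0.10 and 0.53 with DAPT, a change of 0.02 ± 0.23 (adjusted p = 0.970, 95% interval -0.48 to 0.52). The arrays of each group differed by more than the group means did, and replicate 1 was the lower array in both groups.

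Hk2 encodes hexokinase 2, which phosphorylates glucose and so keeps it in the cell. Its ratio was 0.59 and 0.37 with vehicle and 0.33 and 0.83 with DAPT, a change of 0.10 ± 0.22 (adjusted p = 0.833, 95% interval -0.38 to 0.58). The DAPT arrays lay on either side of the vehicle arrays. Gpi1 encodes glucose-6-phosphate isomerase and was also printed in 10 spots. Its mean ratio was -0.37 and -0.20 with vehicle and -0.23 and -0.20 with DAPT, a change of 0.07 ± 0.19 (adjusted p = 0.861, 95% interval -0.35 to 0.49). Its spots changed by -0.05 to 0.29.

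Pfkp encodes the platelet-type subunit of phosphofructokinase, the committing step of the pathway. Its ratio was -1.14 and -0.64 with vehicle and -1.05 and -0.64 with DAPT, a change of 0.04 ± 0.23 (adjusted p = 0.935, 95% interval -0.46 to 0.55). The ratio of Pfkp was below 0 on all 4 arrays, and a further probe for it was too dim to be kept. Aldoa encodes aldolase A, which splits fructose 1,6-bisphosphate into trioses. Its ratio was 0.66 and 0.63 with vehicle and 0.39 and 0.61 with DAPT, a change of -0.14 ± 0.20 (adjusted p = 0.711, 95% interval -0.57 to 0.28). Aldoa alone of the 10 had both DAPT arrays below both vehicle arrays, where 6821 of 21469 did over all genes. Its further probe went the other way, from -0.04 and 0.29 to 0.47 and 0.59 (0.40 ± 0.20, adjusted p = 0.254), and the mean over both probes changed by 0.13, so the direction of Aldoa is not settled here.

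The changes thus differed along the pathway in size. The 5 genes from Slc2a1 to Aldoa changed by -0.14 to 0.10, and the 5 from Tpi1 to Ldha by 0.47 to 0.96. This division was drawn after the values were seen and was not tested. Tpi1 itself gives back no ATP or NADH, and it is counted with the lower stretch by order of steps alone. Counted with the upper stretch, it would extend that range to 0.47. Isoform genes outside the 10 did not all follow the division. Those of the upper stretch ran from -0.41 (Pfkm) to 0.52 (Hk1), which exceeds the change of Tpi1. Those of the lower stretch ran from -1.93 (Gapdhs, on its brightest probe) to 0.98 (Pgam2), with Ldhb at -0.96. Gapdh and Pkm, which encode the dehydrogenase and the pyruvate kinase of the lower stretch, are no members of the 10. Gapdh changed by 0.57 ± 0.19 (adjusted p = 0.0945) and Pkm by 0.64 ± 0.21 (adjusted p = 0.0845), and for each both DAPT arrays lay above both vehicle arrays, though neither passed. Of 16 alternative settings 3 leave each of the 10 changes as it was (both filters on dim probes and the replicate block). Of the other 13, the changes of the 2 stretches did not overlap in 12, among them all 4 fits without an array and the fit without marked spots, which kept only 3 of the 10 genes. They did overlap in the red channel alone, quantile normalized within the dye, where the upper stretch ran from -0.17 to 0.60 and the lower from -0.03 to 1.06. Without DAPT 1 the gap was narrow (0.35 against 0.39). Every setting reuses the arrays from which the division was drawn, so the settings cannot test it.

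The stretches of 250 bases before the transcription start of Ldha, Pgk1 and Eno1 are printed because these 3 genes rose together and their promoters are textbook examples of hypoxia-responsive sequence. They are the first listed RefSeq windows of the GRCm38.p6 assembly, on the plus strand: chr7:46845554-46845803 for Ldha, chrX:106186850-106187099 for Pgk1 and chr4:150236458-150236707 for Eno1. Capitals mark the cores ACGTG and GCGTG of the hypoxia response element on either strand. Within the E-box CACGTG, which MYC and its partners bind, ACGTG reads on both strands.
Ldha: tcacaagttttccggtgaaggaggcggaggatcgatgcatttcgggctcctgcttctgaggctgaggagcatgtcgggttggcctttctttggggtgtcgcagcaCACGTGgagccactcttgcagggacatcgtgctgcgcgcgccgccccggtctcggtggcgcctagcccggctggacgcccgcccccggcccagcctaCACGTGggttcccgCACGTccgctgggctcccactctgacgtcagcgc
Pgk1: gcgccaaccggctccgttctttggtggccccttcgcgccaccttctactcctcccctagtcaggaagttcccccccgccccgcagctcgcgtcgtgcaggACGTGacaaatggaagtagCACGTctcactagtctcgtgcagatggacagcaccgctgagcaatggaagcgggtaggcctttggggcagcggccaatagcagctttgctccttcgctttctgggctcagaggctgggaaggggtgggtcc
Eno1: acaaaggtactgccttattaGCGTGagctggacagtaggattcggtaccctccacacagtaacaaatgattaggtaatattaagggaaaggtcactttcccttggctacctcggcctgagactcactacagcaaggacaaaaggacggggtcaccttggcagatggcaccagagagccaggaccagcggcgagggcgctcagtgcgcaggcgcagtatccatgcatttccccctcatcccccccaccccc
The printed Ldha window held 5 matches to ACGTG, which fall in 3 stretches, and the Pgk1 window 2 matches. The printed Eno1 window held 0 matches to ACGTG and 1 to GCGTG. Windows at other listed starts differed: those of Eno1 held 0 matches to ACGTG and 2 to GCGTG each, and that of Ldha 0 and 1. Of 32851 promoter windows of this length, 16.6% held ACGTG and 38.6% held either core. Matches to ACGTG numbered 2 or more in 6.81% and 3 or more in 1.22%. Over 15 windows of the 10 genes, 6 genes had ACGTG in a window and 8 had either core, so Gpi1 and Tpi1 had neither. These counts are per gene over any of its windows, so they do not compare directly with the shares per window. Genes that did not pass held these letters too: the Hk2 window had 2 matches to ACGTG and the Slc2a1 window had 1. The matches are letters in a window, and binding was not measured.

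The log2 ratio falls or rises through either dye, so both channels were followed after loess and Aquantile normalization, on a scale where the ratio change is the red change minus the green change. The green channel carries the same reference RNA on every array. A change was assigned to the channel that moved further in the direction of the ratio, which was red for 6 genes (Slc2a1, Hk2, Gpi1, Pgk1, Pgam1 and Ldha) and green for 4 (Pfkp, Aldoa, Tpi1 and Eno1). In Slc2a1, Hk2, Gpi1, Pfkp and Aldoa the ratio change itself was smaller than its SE, so there was little change to assign. The median change of the 10 was 0.34 in log2 red signal and -0.0022 in log2 green signal, against -0.04 and 0.04 over all genes.

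For Ldha the red channel carried the rise on this scale. Its log2 red signal was 14.23 and 13.79 with vehicle and 14.78 and 14.86 with DAPT, a change of 0.81 ± 0.28, with both DAPT arrays above both vehicle arrays. Its log2 green signal was 14.52 and 14.00 with vehicle and 14.16 and 14.17 with DAPT, a change of -0.10 ± 0.28. Red thus held 89.1% of the ratio change of Ldha on its brightest probe. With the scanner's processed signals at each channel's 75th percentile, however, green carried it (0.25 in red, -0.61 in green).

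Red also carried the rise of Pgk1. Its log2 red signal was 12.46 and 12.26 with vehicle and 13.19 and 12.94 with DAPT (0.70 ± 0.27). Its log2 green signal was 13.26 and 12.76, then 13.09 and 12.65 (-0.14 ± 0.30). Red held 83.0% of the ratio change of Pgk1, and its groups did not overlap, while the green groups did.

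On the brightest probes, which stand for the genes in these channel results, Pgam1 had the largest red change of the 10. Its log2 red signal was 13.20 and 12.41 with vehicle and 13.77 and 13.94 with DAPT (1.05 ± 0.34), again without overlap. Its log2 green signal also moved up, from 13.95 and 13.08 to 13.79 and 14.00 (0.38 ± 0.34), which made the ratio change of Pgam1 smaller than its red change. Further probes, left out of that ranking, rose by more in red for Pgk1 (from 10.86 and 11.08 to 11.86 and 12.23) and for Aldoa (given below).

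For Eno1 the green channel carried the ratio change, and the groups overlapped in both dyes. Its log2 red signal was 14.28 and 12.78 with vehicle and 14.77 and 12.47 with DAPT, a change of 0.09 ± 0.81. Its log2 green signal was 14.13 and 12.70 with vehicle and 13.69 and 11.39 with DAPT, a change of -0.87 ± 0.79. Replicate 2 was the dimmer array in both groups and both dyes. Within the DAPT group the standard deviation was 1.63 in red and 1.63 in green but 0.00072 in the ratio, so red and green of this spot moved together while their ratio held. Red held 8.99% of the ratio change of Eno1.

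Tpi1 had the same form. Its log2 red signal was 14.20 and 12.90 with vehicle and 14.36 and 12.61 with DAPT (-0.07 ± 0.66). Its log2 green signal was 14.52 and 13.21, then 14.12 and 12.52 (-0.54 ± 0.62). Both changes of Tpi1 were smaller than their SE, and the groups overlapped in both dyes.

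**Figure D2:**
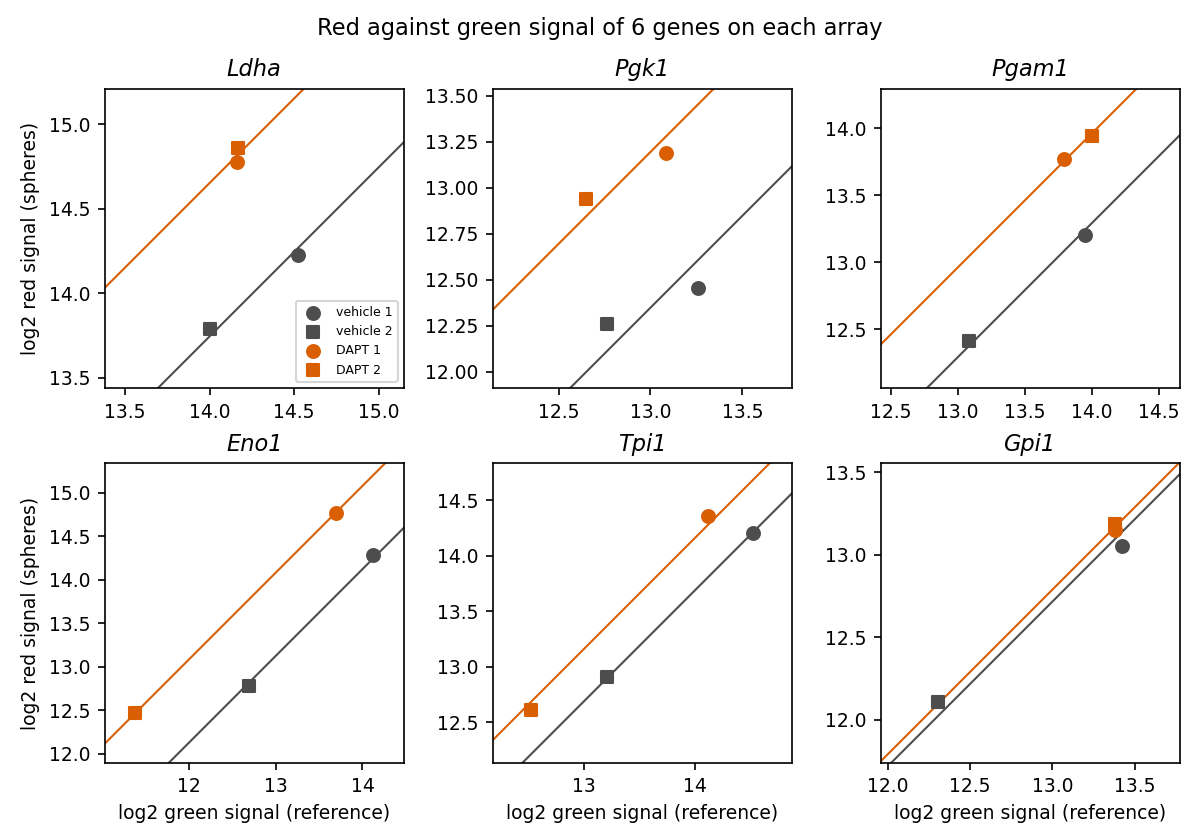
Log2 red signal of the sphere RNA (vertical axis) against log2 green signal of the reference RNA (horizontal axis) for 6 of the genes, 1 point per array, on equal scales within a panel. The lines have slope 1 and run at each group's mean ratio, so the gap between them is the ratio change. For Ldha, Pgk1 and Pgam1 the DAPT points lie higher in red, while for Eno1 and Tpi1 the points of each group spread along the line and the groups overlap in red.

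Among the upper genes, on their brightest probes, red and green changed with the same sign in Gpi1, Hk2, Slc2a1 and Pfkp. In Aldoa they changed with opposite signs, by little in each. The log2 red signal of Gpi1 was 13.05 and 12.11 with vehicle and 13.15 and 13.19 with DAPT (0.59 ± 0.37), and its green signal changed by 0.52 ± 0.39. Gpi1 was brighter in red with DAPT at 10 of 10 spots, and brighter in green as well, since 0 of its spots fell there. Hk2 changed by 0.48 ± 0.43 in red and 0.38 ± 0.40 in green, and Slc2a1 by 0.20 ± 0.28 and 0.18 ± 0.26. Pfkp changed by -0.24 ± 0.55 and -0.28 ± 0.67, and Aldoa by -0.05 ± 0.27 and 0.09 ± 0.24. The further Aldoa probe rose in both dyes, and its groups overlapped in neither. Its log2 red signal went from 13.29 and 13.49 to 14.45 and 14.66. Its log2 green signal went from 13.32 and 13.20 to 13.97 and 14.07. On their brightest probes none of these 5 genes passed in either dye, and of them only Gpi1 had red groups that did not overlap.

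Tested on its own channel with limma, none of the 10 genes passed in red or in green. In red the lowest adjusted p was 0.351 for Pgam1, with 0.372 for Ldha and 0.386 for Pgk1 (unadjusted p = 0.0198, 0.0270 and 0.0380), and 3 of the 10 were under 0.05 before adjustment. Over all genes 0.00466% passed in red (1 gene, with 2638 under 0.05 before adjustment) and 0% in green (0 genes, with 1715 under 0.05 before adjustment). On the brightest probes, 4 of the 10 genes had both DAPT arrays above both vehicle arrays in red (Gpi1, Pgk1, Pgam1 and Ldha), against 21.6% of all genes. In green, on the same probes, 0 of the 10 had both DAPT arrays below both vehicle arrays, against 18.4% of all genes. The further Ldha probe did, at 13.44 and 13.11 in log2 green signal with vehicle and 13.04 and 12.85 with DAPT.

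Red and green of a gene varied together between the arrays of a group, and the ratio varied less. The median difference between the vehicle arrays was 0.41 in log2 red signal, 0.36 in log2 green signal and 0.21 in the log2 ratio. Between the DAPT arrays it was 0.22, 0.22 and 0.19, so there the ratio varied only slightly less. Across 21469 genes, which are not independent replicates, the difference between the arrays of a group correlated between red and green at 0.849 for vehicle and 0.777 for DAPT. The 10 spots of Pgk1 show the same on 1 array: on DAPT 2 their standard deviation was 1.10 in red and 1.08 in green but 0.18 in the ratio.

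**Figure D3:**
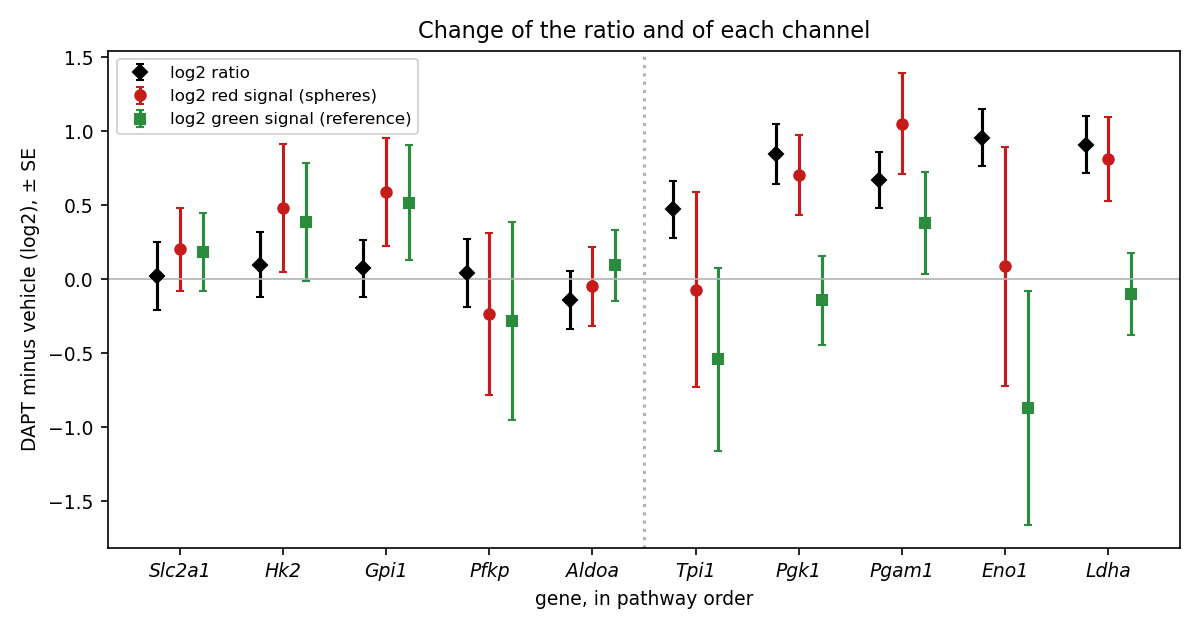
Change with DAPT (vertical axis, log2, ± SE from limma, n = 2 arrays per group) of the ratio (black diamonds), the red signal (red circles) and the green signal (green squares) for the 10 genes in pathway order. Red follows the ratio for Ldha and Pgk1 and exceeds it for Pgam1, while for Eno1 red stands at 0.09 and green at -0.87.

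The assignment to a channel depended in part on the normalization. With quantile normalization over all 8 channels, and within each dye, the same number was carried by red (6 of 10). With the scanner's processed signals set to each channel's 75th percentile, red carried 3 (Aldoa, Pgk1 and Pgam1) and green 7. On that scale green carried Ldha, as given above, and Eno1 changed by -0.56 in red and -1.31 in green. Red carried the change of Pgk1 and Pgam1, and green that of Eno1 and Tpi1, under each of these 4 normalizations.

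All 10 genes were well above background in both dyes on all 4 arrays. In brightness, 8 of them lay in the brightest of 5 equal groups of genes, and Hk2 and Pfkp in the group below. In that brightest group the median ratio change was -0.15 and 1.44% of genes rose, so the changes of Ldha, Eno1 and Pgk1 were opposite in sign to that median. The scanner software marked a spot as non-uniform or as an outlier for 5 of the 14 probes on the vehicle 1 array and 8 on vehicle 2, and with DAPT for 10 on array 1 and 11 on array 2. Of all probe spots, 11.5% and 29.2% were marked on the vehicle arrays and 49.6% and 50.9% on the DAPT arrays, so the marks go with the group, and their part in the changes was not tested. Without marked spots only Aldoa kept 2 arrays per group, at -0.14. Gpi1 kept 2 vehicle arrays and 1 DAPT array (0.04), and Ldha 1 array per group (0.83), which is a difference between these 2 arrays.

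In red, 63.7% to 69.5% of an array's probe spots stood well above background, and the median red signal was 1.82 to 2.85 times the local background. All 4 arrays lay on 1 slide with 1 scan, vehicle at positions 4 and 3 and DAPT at 2 and 1, so position and group cannot be told apart. The correlation of log2 ratios over all genes was 0.922 for the vehicle pair, 0.944 for the DAPT pair and 0.839 to 0.879 for pairs across groups. Basal markers such as Krt5, Krt14 and Trp63 were detected in both groups: all 10 listed were tested, 1 fell, and their summed red signal (linear intensity) was 157838 to 266101 with vehicle and 159912 to 162576 with DAPT. Fibroblast markers, from a cell type outside the sorted population, fell: 8 of 11 passed downward (Col6a3 had no named probe), the median change was -1.45, and their summed red signal was 40858 to 53541 with vehicle and 12652 to 13549 with DAPT. The part of this shift in the changes of the 10 genes was not tested. Among luminal markers 2 of 9 fell, among smooth muscle markers 1 of 7, among neuroendocrine markers 1 of 5 and among red cell markers 1 of 4. Of 5 endothelial markers 0 passed (1 with an unadjusted p under 0.05), and of 8 leukocyte markers 0 passed (0 with an unadjusted p under 0.05).

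Around the 10 genes, 8 lists of related genes were followed, 111 genes of which 96 were tested. In all, 2 rose and 5 fell, and their median change was -0.11. Before adjustment 27 of the 96 had p under 0.05, where 4993 of 21469 did over all genes.

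Other isoforms of the same steps moved both ways: of 15 tested, 1 rose and 2 fell (median 0.11). Pgam2, the muscle mutase, rose by 0.98 ± 0.24 (adjusted p = 0.0334, not passing without vehicle 1 or without DAPT 2). It passed in 7 of the 11 settings that keep every array and fit no block, the reported fit among them. With the replicate number as a block in limma it passed too (adjusted p = 0.00581). Ldhb, the lactate dehydrogenase subunit of heart and other oxidative tissues, fell by 0.96 ± 0.21 (adjusted p = 0.0179, not passing without DAPT 2). It passed in 6 of 11 settings without a block, and with the block (adjusted p = 0.00947). It did not pass with median centring (-0.60), the processed intensities (-0.61), offset 10, the red channel alone or debris spots kept. Ldhb stood at 0.26 and 0.37 with vehicle and -0.44 and -0.84 with DAPT, and its red signal changed by -1.24 (adjusted p = 0.317), so the ratios of Ldha and Ldhb moved in opposite directions. Gapdhs, the sperm-specific dehydrogenase, fell by 1.93 ± 0.26 (adjusted p = 0.00113) on its brightest probe, with no call in the red channel alone or with debris spots kept, while its further probe changed by 0.34 ± 0.19 (adjusted p = 0.311). Hk1 at 0.52 and Hk3 at 0.11 did not pass.

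None of 12 glucose and lactate transport genes passed on its brightest probe (median -0.01), and 4 had an unadjusted p under 0.05. The lactate exporters Slc16a1, which encodes MCT1, and Slc16a3, which encodes MCT4, changed by 0.59 ± 0.22 (adjusted p = 0.130) and 0.49 ± 0.20 (adjusted p = 0.171). Slc16a1 had further probes that rose by 1.61 ± 0.23 (adjusted p = 0.00198) and 1.41 ± 0.24 (adjusted p = 0.00539), so its result rests on the choice of probe. The chaperone gene of these exporters, Bsg, changed by 0.01 and the insulin-responsive glucose transporter gene Slc2a4 by -0.24.

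Of 10 flux regulators 1 rose and 1 fell (median -0.14). Fbp1, the fructose bisphosphatase that runs the phosphofructokinase step backward, fell by 1.11 ± 0.20 (adjusted p = 0.00635), but its red signal changed by only -0.12 and its green signal by 0.99, and in the red channel alone, quantile normalized, its direction turned (0.07). Nor did it pass with the processed intensities (-0.48) or with debris spots kept (-0.57). Tigar, which lowers fructose 2,6-bisphosphate, rose by 0.95 ± 0.23 (adjusted p = 0.0290, not passing without vehicle 2 or without DAPT 2). It passed in 4 of 11 settings that keep every array and fit no block, and with the block (adjusted p = 0.0130). It did not pass under median centring, scale normalization, the processed intensities, offset 10, the red channel alone, debris spots kept and the mean over probes (0.26). A further Tigar probe changed by -0.42 ± 0.20 (adjusted p = 0.224). The kinase genes Pfkfb2 and Pfkfb3, the glucose uptake inhibitor gene Txnip and Pck2 changed by -0.17, -0.19, -0.34 and 0.58 and did not pass.

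Of 13 genes of pyruvate entry into mitochondria 1 fell (median -0.24). Pdk4, a kinase that switches off pyruvate dehydrogenase, was not well above background on either DAPT array. With the measured DAPT mean taken as a bound, its mean red signal was at least 1.81-fold lower with DAPT. That bound allows for the dim signal alone and leaves out the spread between arrays. In limma that red change was -0.86 ± 0.27 and did not pass (adjusted p = 0.347). The ratio of Pdk4 changed by -0.88 ± 0.23 (adjusted p = 0.0373, not passing without vehicle 1 or without DAPT 2). Over the settings that change ran from -0.72 with median centring to -2.94 with the processed intensities. It did not pass with median centring, in the red channel alone or with debris spots kept. Pdha1 at 0.48, Dlat at 0.13, Pdk2 at -0.25 and Pcx at -0.25 did not pass. Of 8 pentose phosphate genes 1 fell (median -0.18): H6pd, the hexose phosphate dehydrogenase of the endoplasmic reticulum, fell by 0.87 ± 0.19 (adjusted p = 0.0198, not passing without vehicle 2 or without DAPT 2), with a further probe at -0.02. It passed in 5 of 11 settings that keep every array and fit no block, and with the block (adjusted p = 0.0128). It did not pass with median centring (-0.49), the processed intensities (-0.41), offset 10, the red channel alone, debris spots kept or the mean over probes (-0.45). G6pdx at -0.21, Pgd at 0.01, Taldo1 at -0.17 and Tkt at -0.19, the enzymes of the cytosolic branch, did not pass.

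None of 10 glycogen genes passed (median -0.11, 2 with an unadjusted p under 0.05), with the phosphorylase gene Pygb at -0.84 ± 0.24 (adjusted p = 0.0556), the branching enzyme gene Gbe1 at 0.56, Gyg at -0.19 and Pgm1 at -0.25. None of 17 hypoxia-induced genes outside glycolysis passed on its brightest probe. Before adjustment 4 had p under 0.05, where 4993 of 21469 did over all genes, and 3 of the 17 changes were above 0 (median -0.16). Bnip3 and Bnip3l, which mark mitochondria for removal, changed by -0.20 and -0.16, Ddit4 by 0.32 and Bhlhe40 by -0.67 ± 0.20 (adjusted p = 0.0670). Vegfa, the angiogenic factor named here because its probes differ, changed by -0.24 on its brightest probe and by -0.79 ± 0.21 (adjusted p = 0.0467) on a probe almost as bright. None of 11 transcription factor genes passed on its brightest probe (median -0.01, 3 with an unadjusted p under 0.05): Hif1a changed by -0.23, Myc by 0.07, Foxk1 by -0.25 and Foxk2 by -0.06. Further Myc probes went the other way, by -0.32 ± 0.22 and -0.39 ± 0.24, and did not pass (adjusted p = 0.410 and 0.345, limma over all probes kept).

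**Figure D4:**
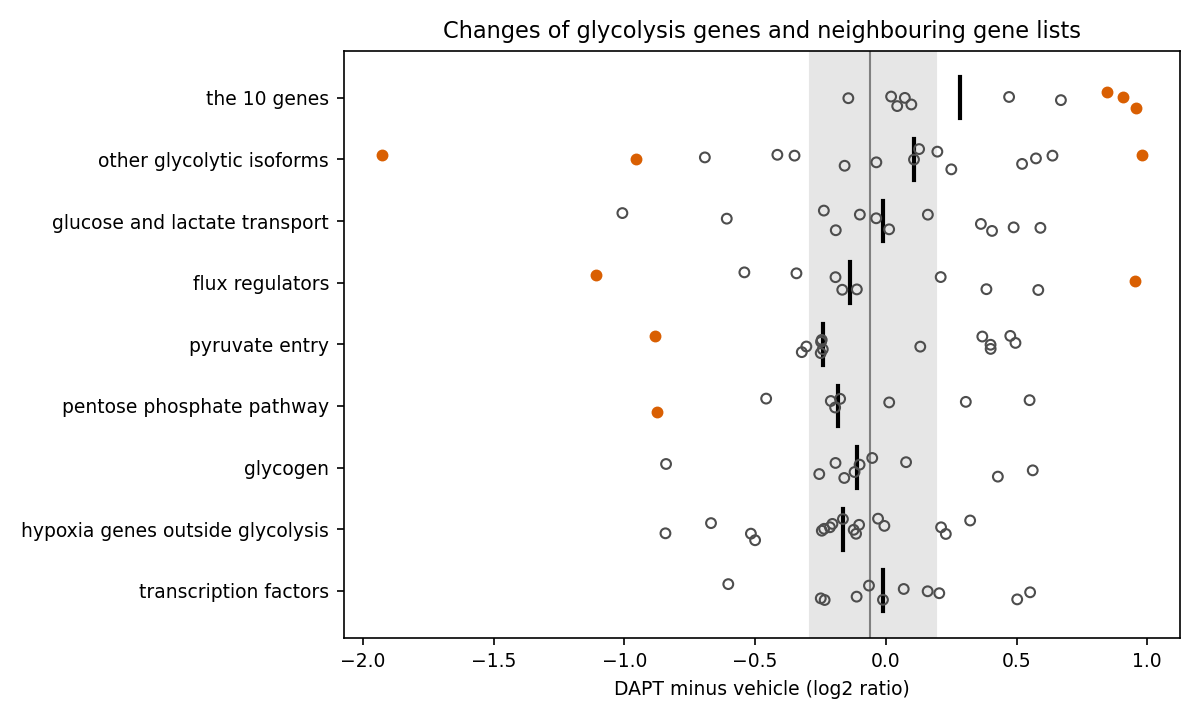
Change of the log2 ratio with DAPT (horizontal axis) for each tested gene of the 10 and of 8 neighbouring lists (rows). Filled orange points passed (adjusted p under 0.05 with limma), open points did not, black bars are list medians, the grey line is the median of all genes (-0.06) and the grey band their middle 50%. The 10 genes have 3 filled points, all to the right, and a median of 0.28.

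The calls among the 10 genes held under some settings and not under others. Eno1, Ldha and Pgk1 passed with median centring, scale normalization, the authors' value table, either other filter on dim probes and the mean over probes. None of the 10 passed with the scanner's processed intensities, in the red channel alone (quantile normalized within the dye), without marked spots (3 genes left) or with the debris spots of DAPT 2 kept. With the processed intensities, red alone and debris spots kept, 4, 3 and 4 of them had an unadjusted p under 0.05. Over all genes 3785, 2479 and 2353 did. In these settings too the 3 changes were above 0 wherever they could be fitted. Relative to the median of all genes, the median of the 10 was 0.34, 0.65 with median centring and 0.40 with scale normalization. Over the settings that leave no array out, Ldha ranged from 0.83 to 1.37, Pgk1 from 0.73 to 1.31 and Eno1 from 0.18 to 1.45, with the lowest value of Eno1 in the red channel alone.

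**Figure D5:**
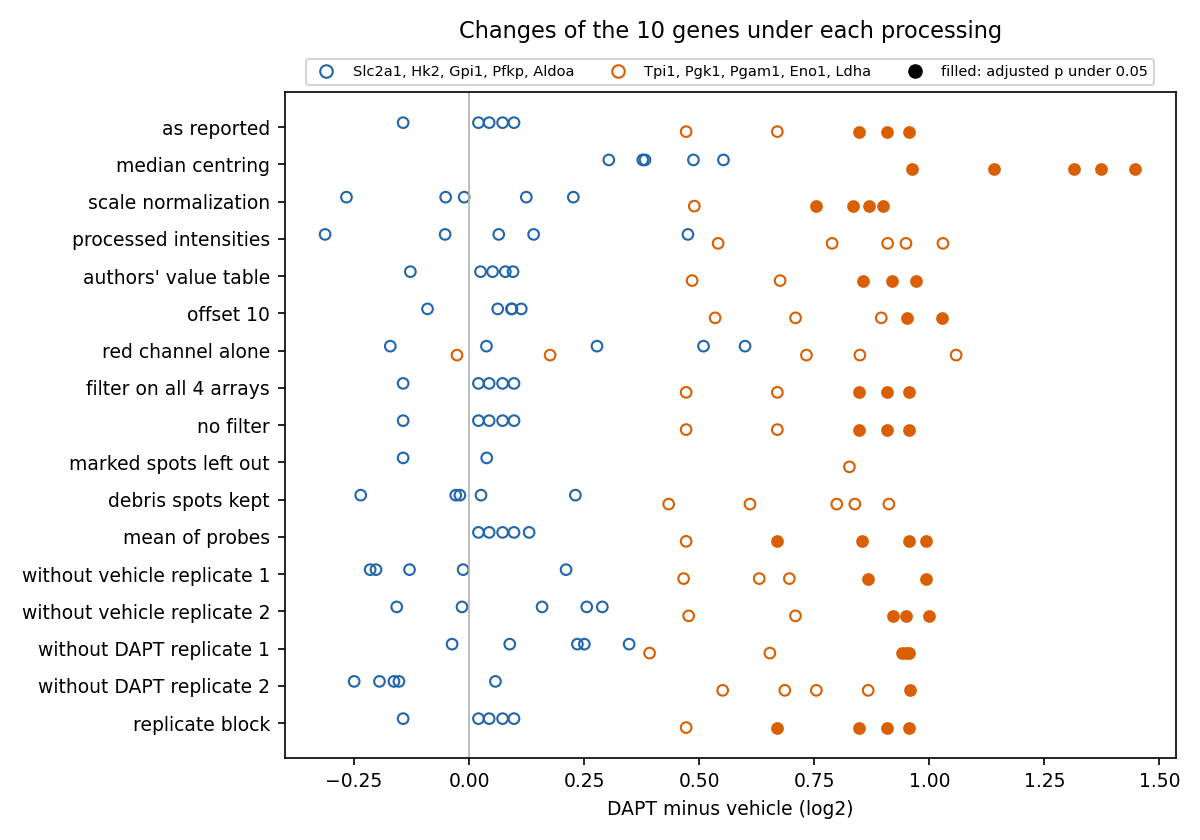
Change with DAPT (horizontal axis, log2) of each of the 10 genes under each processing setting (rows). Blue circles are Slc2a1, Hk2, Gpi1, Pfkp and Aldoa, orange circles Tpi1, Pgk1, Pgam1, Eno1 and Ldha, and filled circles passed (adjusted p under 0.05 with limma). With median centring 5 circles are filled and in the red channel alone 0 are.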

How the data were processed

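Per the file headers, Agilent Feature Extraction 10.7.3.1 wrote 1 scanner file per array, with the median intensity of each spot and its local background in both channels, not normalized, and processed intensities that the software had corrected. The deposited log10 ratio in these files was read only to learn which way the series' table of values runs. That table, deposited by the authors, holds log2 values, which correlated at 0.9996 to 0.9998 with the ratios computed here (column medians from -0.0150 to 0.00072). Its normalization by the authors is not stated in these sources.

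Background was corrected with normexp (offset 50) and loess was fitted within arrays, with control spots at weight 0. On DAPT 2, 13 debris spots (local background more than 5 times the median of that array) were left out. Probes were named through RefSeq accessions (24375 of 41174), spots were averaged, and a probe was kept if called well above background in the red dye on each array of 1 group or of both. The probe with the brightest red signal stood for its gene. Groups were compared with limma 3.58.1 (lmFit, eBayes, two-sided) in R 4.3.3. The fit was tested on simulated data. Single channels were normalized with loess and Aquantile; the alternative named the red channel alone used quantile normalization within the dye, without loess. A gene not well above background in a group has a bound there, set on the red signal and open to dye bias. The members and lists were chosen with earlier results of these data known. From each other list, the genes that passed and up to 4 of the brightest others were named. Vegfa and, for their further probes, Arrdc4, Eno2, Foxk2 and Myc were named after their values were seen. Alternatives changed the normalization, background, offset, filter, probes, arrays and block. The number of arrays limits the precision. The deviations of same-numbered arrays, which the labels do not tie, correlated at 0.0845.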

Additional observations from a re-analysis of the deposited data

How the results depend on the processing

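Of the 10 genes, 3 rose in the fit as reported. The number was 5 with median centring, 4 with scale normalization and likewise with the mean over probes, 2 with offset 10, 0 with the processed intensities, in the red channel alone, with debris spots kept and, of 3 genes left, without marked spots, and 1 to 3 without 1 array (1 without DAPT 2). No alternative called a fall among the 10.

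Over all genes, 618 rose and 841 fell (42.4% of calls upward). These became 1263 and 527 with median centring (70.6%, with the median of all genes at 0.11), 384 and 1001 after scaling between arrays (27.7%), 285 and 421 with the processed intensities, 358 and 517 with offset 10, 385 and 261 without marked spots (59.6%, 10497 genes tested), 3 and 70 with debris spots kept (4.11%) and 0 and 0 in the red channel alone (2479 at an unadjusted p under 0.05). Here the red channel was quantile normalized within its dye, while red after loess and Aquantile gave 1 call and 2638. Without 1 array 416 to 812 rose and 603 to 1023 fell.

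In the 8 other lists together, 2 rose and 5 fell. Rises numbered 13 with median centring, 1 with scale normalization and likewise with the filter on all 4 arrays, and 0 with processed intensities, offset 10, debris spots kept and the red channel alone. Falls numbered 2 with median centring, 8 with scale normalization, 3 with offset 10 and without marked spots, and 0 with debris spots kept and in the red channel alone. Without 1 array, 1 to 5 rose and 2 to 8 fell.

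Red carried 6 of the 10 changes, and 3 with the processed signals at the 75th percentile, counting genes whose ratio change was smaller than its SE. Changes that turned sign, none of which passed, were Aldoa at 0.30 (median centring), 0.038 (red channel alone) and 0.13 (mean over probes), Slc2a1 at -0.051 (scale normalization), -0.052 (processed intensities) and -0.020 (debris spots kept), Hk2 at -0.011 (scale normalization) and -0.029 (debris spots kept), Pfkp at -0.17 and Tpi1 at -0.026 (both in the red channel alone). Without 1 array Slc2a1 ranged from -0.22 to 0.26, Hk2 from -0.15 to 0.35, Pfkp from -0.20 to 0.29 and Gpi1 from -0.013 to 0.16. The cause of these shifts was not tested.

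With the replicate number as a replicate block, 4 of the 10 rose (Pgam1 added, adjusted p = 0.0454), 894 and 1169 of all genes were called, and in the other lists 2 rose and 8 fell. A fit with slide or scan as a block was not run, since there was 1 slide and 1 scan.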

Other observations

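Further probes of genes in the neighbouring lists passed where the brightest probe of the gene did not. Besides Slc16a1 and Vegfa, given above, these were the GLUT1 regulator gene Arrdc4 (1.00 ± 0.20, adjusted p = 0.0116, against 0.38 ± 0.25 on its brightest probe), the neuronal enolase gene Eno2 (-1.07 ± 0.22, adjusted p = 0.0135, against -0.69 ± 0.29) and Foxk2 (1.05 ± 0.26, adjusted p = 0.0336, against -0.06 ± 0.21), all from limma over all probes kept. Which transcripts these probes read was not examined.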
